A study of Brassica rapa subsp. pekinensis with 6 samples.

Results

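Warming is taken here as the step that carried Chinese cabbage plants out of 2 days at 12 °C into 28 °C for 3 h, and it was described in 2 inbred lines, Kenshin and Chiifu. A gene entered the comparison when its probe intensity (PI), the brightness of its probes on the array, was above 500 in at least 1 of the 6 samples of the study, which held for 26948 of 41173 genes (65.5%). The rule used no ratio of 28 to 12 °C, but it counts the compared samples too, and 650.0 genes passed at 28 °C only and 426 at 12 °C only, so these entered through the group where they were high. The genes nearest to the limit peaked at a PI of 500.25 (inside) and 499.64 (outside). The study used the Br135K microarray, which reads each gene model by 3 overlapping probes at its 3′ end in *Brassica rapa*, on RNA from shoots. The groups were plants at 28 °C (3 weeks of growth at 22 °C, then 2 days at 12 °C, then 3 h at 28 °C), plants at 12 °C (the same growth and cold step, sampled at its end) and plants at 22 °C (growth alone). Each group held 1 sample of Kenshin, the line of subtropical origin, and 1 of Chiifu, the temperate one, all *B. rapa* ssp. *pekinensis* under long days. The methods give shoots of 5 plants per sample. Both compared groups carried the same cold step. No sample was kept at 12 °C for the additional 3 h, and no clock time of sampling is given in the sources used here, so the added hours and the higher temperature cannot be told apart.

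When plants are warmed, heat shock factors, a family of transcription factors, switch on genes for chaperones. Small heat shock proteins (sHSPs) hold unfolding proteins in solution, HSP70 with its DnaJ partners refolds them, and HSP101 pulls aggregates apart. In *Arabidopsis* a milder rise in ambient temperature is also read by the photoreceptor phytochrome B, which releases the PIF4 transcription factor and with it elongation growth.

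The response is given per line as the log2 ratio of PI at 28 °C over PI at 12 °C, with 50 added to each PI so that dim probes do not produce very large ratios. A log2 ratio of 1 is a 2-fold difference on this scale, which understates the change of dim genes. There was 1 sample per line and temperature, so the 2 lines are the only repeats, and a mean ± SD below is over the 2 lines. That SD mixes real differences between the lines with array error. Genes were named only where the study's text gives a name for their *B. rapa* identifier, and the files do not pair the other identifiers with names. Probes were designed on a Chiifu genome and close gene copies share sequence, so levels of copies, and levels between the lines, may be blurred by cross-hybridisation. Marker genes of shoot tissue were not analysed here. In whole shoots, fewer cells of a type and less RNA per cell cannot be told apart.

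The 6 arrays were alike in scale. Between 23669 and 24035 genes per sample exceeded a PI of 500, sample medians over all genes lay between 965 and 1034, and a control feature of random sequence read 26.9 to 30.5. Of 14 control features for the transgenes GFP and Bar, log2 ratios ran from -0.46 to 2.23 in Kenshin (median -0.04) and from -0.16 to 0.87 in Chiifu (median 0.53), and 13 of the 14 were above 0 in Chiifu. The median log2 ratio of all compared genes was 0.0046 in Kenshin and 0.039 in Chiifu.

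Most genes differed little between 28 and 12 °C, and a minority differed greatly. The median absolute log2 ratio was 0.33 in Kenshin, a 1.25-fold difference, and 0.38 in Chiifu, a 1.3-fold difference. The 90th percentile of the absolute log2 ratio was 1.12 in Kenshin and 1.25 in Chiifu, and the SD over genes was 0.74 in Kenshin and 0.82 in Chiifu. Single genes spanned log2 ratios of -7.20 to 5.58 in Kenshin and -6.97 to 4.91 in Chiifu. At least a 2-fold difference in at least 1 line was found for 5912 genes (21.9%). In Kenshin, 1766 genes (6.55%) were at least 2-fold higher and 1569 (5.82%) at least 2-fold lower at 28 °C. In Chiifu, 1653 genes (6.13%) were higher and 2524 (9.37%) lower, so that higher genes slightly outnumbered lower ones in Kenshin, whereas in Chiifu lower genes were clearly more numerous. With each sample scaled to the same median, 1661 genes were higher and 1655 lower in Kenshin and 1844 higher and 2340.0 lower in Chiifu, so the excess of lower genes in Chiifu remained while the line with more higher genes turned.

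The excess of lower genes in Chiifu grew with the size of the difference. At 4-fold, 401 genes were lower in Kenshin and 715 in Chiifu, at 8-fold 101 in Kenshin and 205 in Chiifu, and at 16-fold 24 in Kenshin and 66 in Chiifu. Among higher genes the order was the opposite. There were 313 in Kenshin and 213 in Chiifu at 4-fold, 68 in Kenshin and 45 in Chiifu at 8-fold, and 16 in Kenshin and 5 in Chiifu at 16-fold. The difference between the lines in these counts has no test, since each line has a single ratio per gene.

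**Figure D1:**
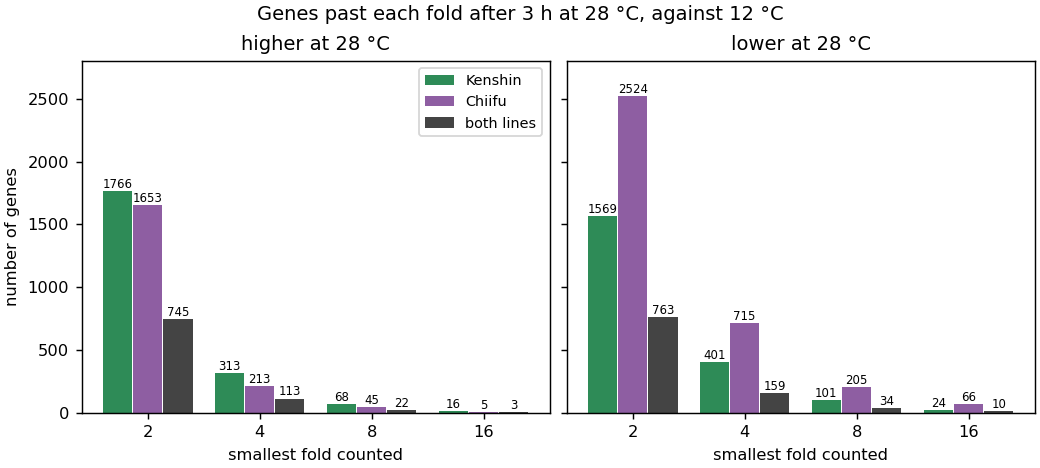
Number of genes (y axis) at least 2, 4, 8 or 16-fold higher (left) or lower (right) at 28 °C than at 12 °C, for Kenshin, for Chiifu and for both lines in the same direction, with 50 added to each PI. Chiifu has the tallest bars for lower genes, with 2524 past 2-fold, against 1569 in Kenshin.

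Both lines moved the same way for a part of these genes. At least 2-fold higher in both were 745 genes (2.76% of those compared), and 763 (2.83%) were at least 2-fold lower in both. The 745 are 42.2% of the higher genes of Kenshin and 45.1% of those of Chiifu, and the 763 are 48.6% of the lower genes of Kenshin but 30.2% of those of Chiifu. The direction was shared more often than the 2-fold size. Of the genes 2-fold higher in Kenshin, 82.4% had a positive ratio in Chiifu, and of those 2-fold lower in Kenshin, 87.8% had a negative ratio in Chiifu. In the other direction, 83.2% of the genes 2-fold higher in Chiifu had a positive ratio in Kenshin, and 73.9% of the 2524 genes 2-fold lower in Chiifu had a negative ratio in Kenshin. Over all 26948 genes 65.2% had the same sign in both lines, with a Pearson correlation of 0.50 and a Spearman correlation of 0.45 between the lines' log2 ratios. These are across genes, which are not independent replicates, and the 4 arrays share 1 probe set and 1 processing.

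**Figure D2:**
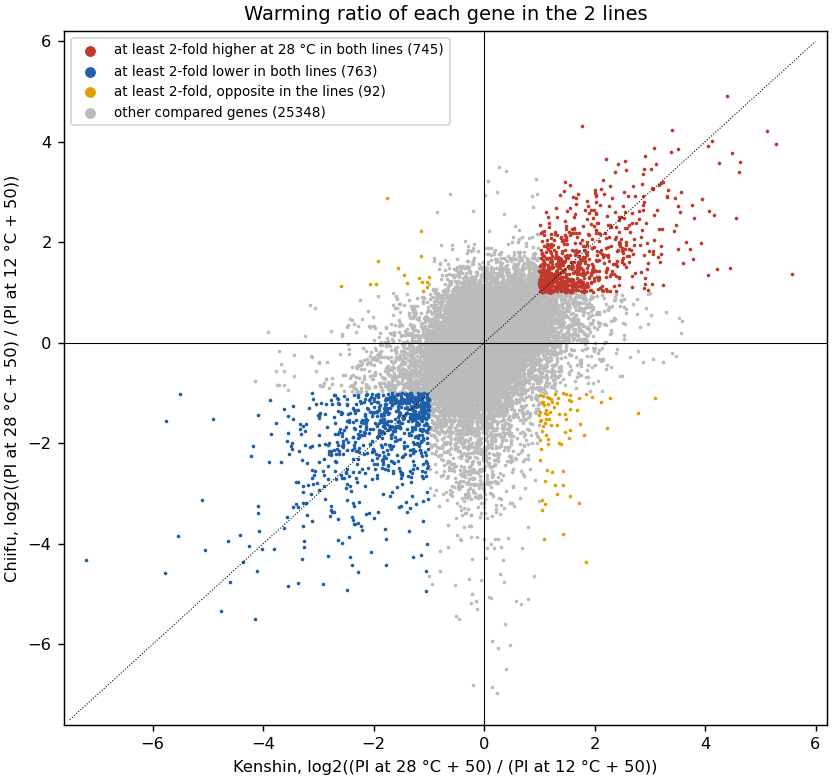
Each point is 1 of 26948 genes, with its log2 ratio of 28 over 12 °C in Kenshin (x axis) and in Chiifu (y axis). The dotted line marks equal ratios. The column of points below the centre, near 0 in Kenshin and far below 0 in Chiifu, is made of genes that were much lower at 28 °C in Chiifu and not in Kenshin.

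A test of the mean difference shared by the lines passed no gene. With limma on log2(PI + 50), all 6 samples and line as a block, 0 of 26948 genes (0%) were higher and 0 (0%) lower at an adjusted p of 0.05. The lowest p after Benjamini-Hochberg adjustment was 0.079. Before adjustment 2713 higher and 2407 lower genes, 19.0% of those tested, had p under 0.05. The fit had 2 residual degrees of freedom. Letting the fitted spread follow the mean intensity, a variant of the same fit, called 237 genes higher (0.879%) and 236 lower (0.876%), with a smallest adjusted p of 0.0166. An exact permutation of 2 samples against 2 that ignores the pairing by line cannot give a two-sided p under 0.333. Exchanges within lines alone allow fewer arrangements, so their limit is higher. The genes at least 2-fold different in both lines had adjusted p-values from 0.079 to 0.562 in the fit without the trend, and 1427 of the 1508 had an unadjusted p under 0.05. The words higher and lower below therefore describe measured values, and no gene was called changed by the fit as planned.

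The size of the ratio depended on the level of the gene. Genes were sorted by mean PI into 10 bins of equal size. In the dimmest bin (mean PI 54.9 to 464), the median absolute log2 ratio was 0.52 in Kenshin and 0.64 in Chiifu, and in the brightest (11919 to 55465) it was 0.20 in Kenshin and 0.19 in Chiifu. At least a 2-fold difference was reached by 27.5% of the dimmest bin in Kenshin and 30% in Chiifu, and by 1.60% of the brightest bin in Kenshin and 2.08% in Chiifu. Agreement of the lines was best at intermediate and higher levels, where the correlation across the genes of a bin reached 0.60, against 0.42 in the dimmest bin and 0.43 in the brightest. In the dimmest bin 135 genes were 2-fold higher and 158 lower in both lines, and in the brightest 5 were higher and 6 lower.

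Genes higher in both lines had been low at 12 °C rather than absent. Their median PI was 2595 in Kenshin and 2710.2 in Chiifu at 28 °C, against 676 in Kenshin and 806 in Chiifu at 12 °C, and 402 of the 745 exceeded 500 at 12 °C in both lines. Only 1 of the 745 lay at or below the random-sequence feature at 12 °C in both lines. At 22 °C the same genes had medians of 1589 in Kenshin and 1664 in Chiifu, between those at 12 and 28 °C. The genes were chosen by their values at 12 and 28 °C, so part of this order follows from the choice. The ratio was the larger one in Kenshin for 402 of the 745, and the lines differed by at least 1 log2 unit for 85.

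Genes lower in both lines were dim at 28 °C compared with the rest. Their median PI was 673 in Kenshin and 571 in Chiifu at 28 °C, against 3012 in Kenshin and 2336 in Chiifu at 12 °C. All compared genes had medians of 3258 in Kenshin and 3179 in Chiifu at 28 °C, against 3193 in Kenshin and 3179 in Chiifu at 12 °C, so at 12 °C the lower genes were at or below the typical level. At 22 °C their medians were 1694 in Kenshin and 1024 in Chiifu, so that in each line the median at 28 °C was below the median of the plants that had not been cooled. Here too the genes were chosen by their values at 12 and 28 °C, so part of this order follows from the choice. At 28 °C 361 of the 763 still exceeded a PI of 500 in both lines, and 1 was at or below the random-sequence feature in both. The lines differed by at least 1 log2 unit for 160 of the 763. The 12 °C samples enter both the cold step and the warming step.

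**Figure D3:**
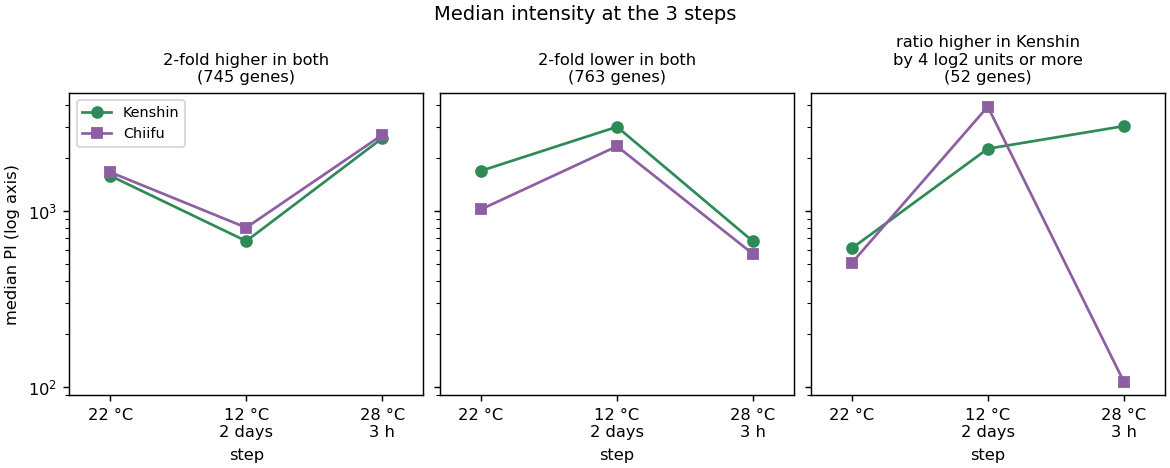
Median PI (y axis, log scale) at 22 °C, after 2 days at 12 °C and after 3 h at 28 °C, for the 745 genes at least 2-fold higher at 28 than at 12 °C in both lines, the 763 at least 2-fold lower, and the 52 whose log2 ratio was at least 4 units higher in Kenshin than in Chiifu. The last group ends near 3040 in Kenshin and near 108 in Chiifu.

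The largest shared differences were found in genes that the files do not name. Ranked by the smaller absolute log2 ratio of the lines, Bra009113 and Bra013992 were first among higher genes. The PI of Bra009113 was 2532 at 28 °C against 72.7 at 12 °C in Kenshin, and 7257 at 28 °C against 193 at 12 °C in Chiifu, which gives log2 ratios of 4.40 in Kenshin and 4.91 in Chiifu. It had been bright at 22 °C in Kenshin (PI 2638) and less so in Chiifu (876). Bra013992 read 2214 at 28 °C and 14.8 at 12 °C in Kenshin, a log2 ratio of 5.13, and 2072 at 28 °C and 63.8 at 12 °C in Chiifu, a log2 ratio of 4.22. The 12 °C value of Kenshin is below the random-sequence feature, so its ratio has no exact size. The gene was also dim at 22 °C (PI 15.4 in Kenshin and 16.7 in Chiifu). Bra013992 passed the PI minimum at 28 °C only, the group where it was high. The mean log2 ratio was 4.65 ± 0.36 for Bra009113 (SD, n = 2 lines, limma adjusted p = 0.104) and 4.67 ± 0.64 for Bra013992 (adjusted p = 0.079). Both 28 °C values were above both 12 °C values for each gene.

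Among lower genes Bra005911 and Bra022722 led the same ranking. At 28 °C Bra005911 reached a PI of 727 in Kenshin and 263 in Chiifu, where the 12 °C samples had 21158 in Kenshin and 12630.0 in Chiifu, for log2 ratios of -4.77 in Kenshin and -5.34 in Chiifu. At 22 °C its PI was 736 in Kenshin and 287 in Chiifu, close to the values at 28 °C. For Bra022722 the Kenshin samples gave 265 at 28 °C and 7560.3 at 12 °C (log2 ratio -4.59), and the Chiifu samples 144 at 28 °C and 5205 at 12 °C (-4.76). This gene was already bright at 22 °C, with a PI of 4032 in Kenshin and 1686 in Chiifu, and was lowest at 28 °C in both lines. Mean log2 ratios were -5.06 ± 0.40 for Bra005911 and -4.68 ± 0.12 for Bra022722 (SD, n = 2 lines), each with a limma adjusted p of 0.079. In the variant with an intensity trend the adjusted p was 0.0421 for Bra009113, 0.0239 for Bra013992, 0.0166 for Bra005911 and 0.0198 for Bra022722.

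At 8-fold in both lines, 22 genes were higher and 34 lower. The 22 had a median PI of 3888 in Kenshin and 4889 in Chiifu at 28 °C, against 207 in Kenshin and 360.1 in Chiifu at 12 °C. The 34 had a median PI of 278 in Kenshin and 154 in Chiifu at 28 °C, against 5720.1 in Kenshin and 4027 in Chiifu at 12 °C. Of the 22 higher genes the study names 2, BrROF2 and a BrHSP20-L copy, and of the 34 lower genes it names 0.

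The study's heat response genes included many genes higher in both lines. The list holds 34 genes, heat shock factors, co-chaperones, sHSPs, large chaperones and 2 further genes, of which 33 exceeded a PI of 500 in at least 1 sample. At least 2-fold higher in both lines were 19 of the 33 (57.6%, against 2.76% of all compared genes). In Kenshin 22 were higher (against 6.55% of all compared genes) and in Chiifu 23 (against 6.13%), and 0 were 2-fold lower in either line. BrHSP18.2A, BrHSP21, BrHSP22.0-L (Bra027999) and BrHSP20-L (Bra040837) passed the PI minimum at 28 °C only. They thus entered through the group where they were high. With no minimum, 19 of the 34 genes were 2-fold higher in both lines. Their median log2 ratio was 1.49 in Kenshin and 1.62 in Chiifu, where all compared genes had 0.0046 in Kenshin and 0.039 in Chiifu. The study picked 15 of these genes for an adaptation table partly because they were higher at 28 °C in Kenshin on these same arrays, and 13 of the 15 were higher in both lines, which is no independent evidence. Of the 18 others, 6 (33.3%) were 2-fold higher in both lines, 7 in Kenshin and 10 in Chiifu. The 18 hold the BrHSP101 and BrHSP70 copies, listed as homologs of *Arabidopsis* heat markers, and further HSP genes. The study states no rule for choosing the further ones, so they may not be independent evidence either. None of the BrHSP101 and BrHSP70 copies was 2-fold higher in both lines. Adjusted p-values of the 19 ran from 0.079 to 0.221 with limma. With an intensity trend 7 of the 33 genes passed 0.05 as higher, against 0.879% of all compared genes. All of the 7 but Bra018216 stand in the adaptation table, so this count is no independent evidence either.

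**Figure D4:**
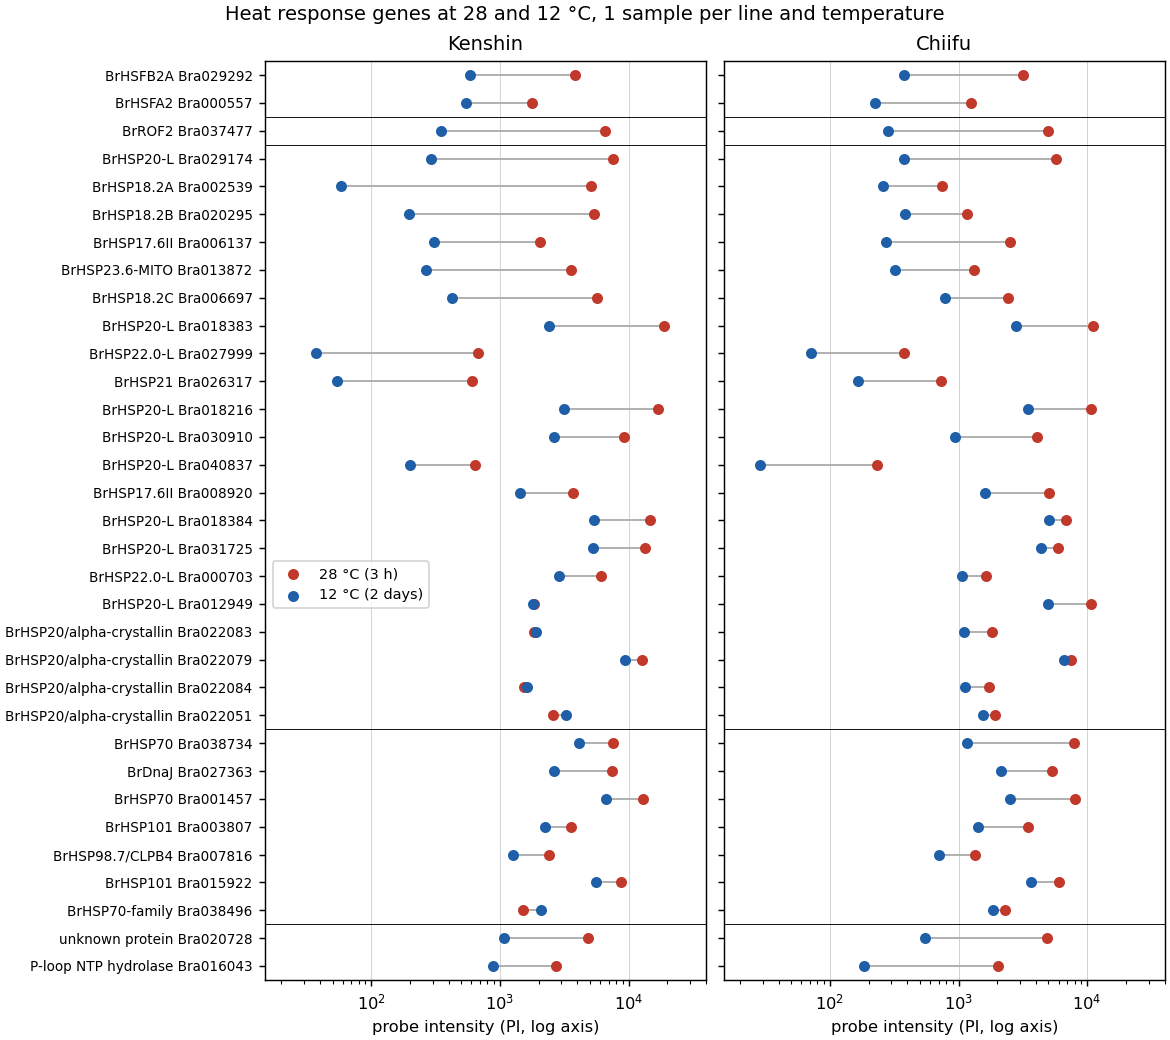
PI (x axis, log scale) of the 33 heat response genes at 28 °C and at 12 °C in Kenshin (left) and Chiifu (right), 1 sample per point, with rules between heat shock factors, co-chaperone, sHSPs, large chaperones and other genes. In 29 of the 33 genes the 28 °C point lies to the right in Kenshin, and in all 33 in Chiifu. Over all 26948 compared genes this held for 13576 in Kenshin and 14336 in Chiifu.

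Both heat shock factors named by the study were higher at 28 °C in both lines. BrHSFA2 (Bra000557) had a PI of 1786 in Kenshin and 1256 in Chiifu at 28 °C, against 542 in Kenshin and 223 in Chiifu at 12 °C (log2 ratios 1.63 in Kenshin and 2.26 in Chiifu). BrHSFA2 is the homolog of the *Arabidopsis* factor that keeps the heat response going after the first hours. At 22 °C it was dimmer still, at 256 in Kenshin and 67.7 in Chiifu. The PI of BrHSFB2A (Bra029292) was 3814 at 28 °C against 587 at 12 °C in Kenshin, and 3164 at 28 °C against 374 at 12 °C in Chiifu, which gives log2 ratios of 2.60 in Kenshin and 2.92 in Chiifu. BrHSFB2A belongs to the class B factors, which lack the activation domain of class A. Mean log2 ratios were 1.95 ± 0.44 for BrHSFA2 (limma adjusted p = 0.0937) and 2.76 ± 0.23 for BrHSFB2A (0.079; SD, n = 2 lines). For both genes the 2 samples at 28 °C were above the 2 at 12 °C, and the ratio was larger in Chiifu, where the 12 °C level was lower.

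BrROF2, whose *Arabidopsis* homolog is an FKBP-type co-chaperone that acts with HSP90 and HSFA2, had the largest shared difference of any named gene and ranked 5 of 26948. BrROF2 (Bra037477) read 6607 at 28 °C and 352 at 12 °C in Kenshin, a log2 ratio of 4.05, and 4968 at 28 °C and 283 at 12 °C in Chiifu, a log2 ratio of 3.91. The lines gave nearly the same ratio, with a mean log2 ratio of 3.98 ± 0.10 (SD, n = 2 lines, SE 0.54 and adjusted p = 0.0923 with limma, 0.0331 with an intensity trend). At 22 °C PI was 1632 in Kenshin and 309 in Chiifu, so Kenshin alone had been well below its own 22 °C level when cold. Its paralog BrROF1 (Bra013224) stayed between 11.0 and 59.1 in all 6 samples and was not compared.

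The sHSPs formed the largest group, with 21 members that all exceeded the minimum. At least 2-fold higher in both lines were 13, in Kenshin 16 and in Chiifu 14, with a median log2 ratio of 1.78 in Kenshin and 1.58 in Chiifu. The shares over all compared genes were 2.76% in both lines, 6.55% in Kenshin and 6.13% in Chiifu. The ratio was the larger one in Kenshin for 13 of the 21. The 3 copies of BrHSP18.2, class I sHSPs of the cytosol, differed most between the lines. At 28 °C BrHSP18.2A (Bra002539) reached a PI of 5114 in Kenshin and 747 in Chiifu, where the 12 °C samples had 57.8 in Kenshin and 259 in Chiifu, for log2 ratios of 5.58 in Kenshin and 1.37 in Chiifu. For BrHSP18.2B (Bra020295) the Kenshin samples gave 5383 at 28 °C and 197 at 12 °C (log2 ratio 4.46), and the Chiifu samples 1167 at 28 °C and 383 at 12 °C (1.49). BrHSP18.2C (Bra006697) had a PI of 5739 in Kenshin and 2431 in Chiifu at 28 °C, against 426 in Kenshin and 779 in Chiifu at 12 °C (log2 ratios 3.61 in Kenshin and 1.58 in Chiifu). The ratios of Kenshin spread widely over the copies, and those of Chiifu were nearly equal. Kenshin was lower than Chiifu at 12 °C and higher at 28 °C for each copy, so both ends of the ratio contributed. The study's qRT-PCR, with primers made for each copy, gave larger increases on warming in Kenshin for BrHSP18.2A and BrHSP18.2B. For BrHSP18.2C it gave the larger increase in Chiifu, the opposite of the array ratios. At 28 °C the PI of BrHSP18.2A in Kenshin was 6.85 times that in Chiifu, and that of BrHSP18.2B 4.61 times, without anything added. With the lines this far apart, the limma adjusted p was 0.191 for BrHSP18.2A, 0.153 for BrHSP18.2B and 0.128 for BrHSP18.2C.

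Organelle and class II sHSPs were higher at 28 °C as well. The PI of BrHSP23.6-MITO (Bra013872) was 3551 at 28 °C against 265 at 12 °C in Kenshin, and 1308 at 28 °C against 323 at 12 °C in Chiifu, which gives log2 ratios of 3.51 in Kenshin and 1.86 in Chiifu. BrHSP23.6-MITO is a mitochondrial sHSP. BrHSP21 (Bra026317) read 603 at 28 °C and 53.7 at 12 °C in Kenshin, a log2 ratio of 2.65, and 729 at 28 °C and 166 at 12 °C in Chiifu, a log2 ratio of 1.85. BrHSP21, the chloroplast sHSP, was dim, and its 12 °C value in Kenshin compares with 28.0 for the random-sequence feature in that sample. At 28 °C BrHSP22.0-L (Bra027999) reached a PI of 677 in Kenshin and 378 in Chiifu, where the 12 °C samples had 37.4 in Kenshin and 71.3 in Chiifu, for log2 ratios of 3.06 in Kenshin and 1.82 in Chiifu. This copy of BrHSP22.0-L, a homolog of an sHSP of the endoplasmic reticulum, was dim in the same way. Its brighter copy Bra000703 had a log2 ratio of 1.05 in Kenshin and 0.61 in Chiifu, and thus was 2-fold higher in Kenshin alone.

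BrHSP17.6II, a cytosolic class II sHSP, has 2 copies, and both were larger in ratio in Chiifu. For BrHSP17.6II (Bra006137) the Kenshin samples gave 2036 at 28 °C and 309.8 at 12 °C (log2 ratio 2.54), and the Chiifu samples 2513 at 28 °C and 271 at 12 °C (3.00). BrHSP17.6II (Bra008920) had a PI of 3693 in Kenshin and 5017 in Chiifu at 28 °C, against 1426 in Kenshin and 1599 in Chiifu at 12 °C (log2 ratios 1.34 in Kenshin and 1.62 in Chiifu). At 22 °C Bra006137 read 909 in Kenshin and 51.7 in Chiifu, and this spread between the lines went with a limma adjusted p of 0.221, the highest among the 19 heat genes. For both copies the 2 samples at 28 °C were above the 2 at 12 °C.

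Among the 8 genes named BrHSP20-L, sHSP-like genes, Bra029174 had the largest shared ratio and ranked 6 of all genes. The PI of BrHSP20-L (Bra029174) was 7627 at 28 °C against 292 at 12 °C in Kenshin, and 5772 at 28 °C against 376 at 12 °C in Chiifu, which gives log2 ratios of 4.49 in Kenshin and 3.77 in Chiifu. Its mean log2 ratio was 4.13 ± 0.51 (SD, n = 2 lines, SE 0.56 and adjusted p = 0.0923 with limma). BrHSP20-L (Bra018383) read 19026 at 28 °C and 2428 at 12 °C in Kenshin, a log2 ratio of 2.94, and 11166 at 28 °C and 2774 at 12 °C in Chiifu, a log2 ratio of 1.99. At 28 °C BrHSP20-L (Bra018216) reached a PI of 16904 in Kenshin and 10773 in Chiifu, where the 12 °C samples had 3159 in Kenshin and 3454 in Chiifu, for log2 ratios of 2.40 in Kenshin and 1.63 in Chiifu. These 2 reached some of the brightest levels of the group at 28 °C, and Bra018216 had a PI of 10773 in Chiifu at 22 °C too, as at 28 °C. For BrHSP20-L (Bra030910) the Kenshin samples gave 9204 at 28 °C and 2649 at 12 °C (log2 ratio 1.78), and the Chiifu samples 4041 at 28 °C and 945 at 12 °C (2.04). BrHSP20-L (Bra040837) had a PI of 637 in Kenshin and 232 in Chiifu at 28 °C, against 199 in Kenshin and 28.8 in Chiifu at 12 °C (log2 ratios 1.46 in Kenshin and 1.84 in Chiifu). In Bra040837 the 28 °C value of Chiifu, 232, was close to the 12 °C value of Kenshin, 199, so the level in the lines differed by about as much as the temperatures.

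The last 3 BrHSP20-L genes were past 2-fold in a single line. Bra018384 and Bra031725, which share the *Arabidopsis* homolog of Bra018383, had log2 ratios of 1.45 and 1.34 in Kenshin and 0.41 and 0.42 in Chiifu. Bra012949 had 0.03 in Kenshin and 1.12 in Chiifu, with a PI of 1843 in Kenshin and 10796 in Chiifu at 28 °C, against 1799 in Kenshin and 4945 in Chiifu at 12 °C. The 4 copies of AT5G47590, annotated by the study as HSP20/alpha-crystallin proteins, were under 2-fold in both lines, with log2 ratios of -0.34 to 0.46 in Kenshin and 0.18 to 0.69 in Chiifu. They were bright at both temperatures, with PI between 1103.5 and 12845. Leaving out these 4, a step taken with their values known, gives 13 of 17 sHSPs 2-fold higher in both lines. With them it is 13 of 21, against 2.76% of all compared genes.

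Most large chaperones were somewhat higher at 28 °C. Of 7, 1 was at least 2-fold higher in both lines (2.76% of all compared genes), 1 in Kenshin (6.55%) and 4 in Chiifu (6.13%). Median log2 ratios were 0.88 in Kenshin and 1.26 in Chiifu. The shared one was BrDnaJ, a partner of HSP70. The PI of BrDnaJ (Bra027363) was 7477 at 28 °C against 2634 at 12 °C in Kenshin, and 5365 at 28 °C against 2129 at 12 °C in Chiifu, which gives log2 ratios of 1.49 in Kenshin and 1.31 in Chiifu. The BrHSP70 pair was higher in both lines but past 2-fold in Chiifu alone. BrHSP70 (Bra001457) read 13032 at 28 °C and 6732 at 12 °C in Kenshin, a log2 ratio of 0.95, and 8099 at 28 °C and 2512 at 12 °C in Chiifu, a log2 ratio of 1.67. At 28 °C BrHSP70 (Bra038734) reached a PI of 7597 in Kenshin and 7871 in Chiifu, where the 12 °C samples had 4092 in Kenshin and 1159 in Chiifu, for log2 ratios of 0.88 in Kenshin and 2.71 in Chiifu. At 28 °C the lines were near each other for Bra038734, and the larger ratio of Chiifu went with a 12 °C level well below that of Kenshin. At 22 °C the PI of Bra038734 was 6488 in Kenshin and 1049 in Chiifu.

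BrHSP101 (Bra003807 and Bra015922), the disaggregase of acquired thermotolerance, had log2 ratios of 0.67 and 0.65 in Kenshin and 1.26 and 0.71 in Chiifu. BrHSP98.7/CLPB4 (Bra007816), an organelle member of the same ClpB family, had nearly equal ratios, 0.91 in Kenshin and 0.90 in Chiifu (mean 0.90 ± 0.0060, SD, n = 2 lines), just short of 2-fold. With PI of 2425 in Kenshin and 1353 in Chiifu at 28 °C, against 1269 in Kenshin and 702 in Chiifu at 12 °C, the 28 °C value of Chiifu and the 12 °C value of Kenshin lay close together. The HSP70-family gene Bra038496 had -0.46 in Kenshin and 0.28 in Chiifu. So in this group 6 of 7 ratios were positive in Kenshin and 7 of 7 in Chiifu, mostly between 1 and 2-fold in Kenshin. Of all 26948 compared genes, 13576 had a positive ratio in Kenshin and 14336 in Chiifu.

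The 2 further heat response genes of the adaptation table were higher in both lines, with the larger ratio in Chiifu. For Bra016043 the Kenshin samples gave 2723 at 28 °C and 889 at 12 °C (log2 ratio 1.56), and the Chiifu samples 2034 at 28 °C and 185 at 12 °C (3.15). It encodes a P-loop nucleotide hydrolase. Bra020728 had a PI of 4854 in Kenshin and 4910.3 in Chiifu at 28 °C, against 1076 in Kenshin and 544 in Chiifu at 12 °C (log2 ratios 2.12 in Kenshin and 3.06 in Chiifu). This gene has no known function in the study's annotation. The study's exportin XPO1A, a nuclear export receptor needed for heat tolerance in *Arabidopsis*, was under 2-fold in both lines, and its 3 copies had log2 ratios of 0.21 to 0.64 in Kenshin and 0.0029 to 0.17 in Chiifu.

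Genes of protein quality control and splicing named by the study were higher at 28 °C in both lines. BrMPSR1-1 and BrMPSR1-2 are homologs of an *Arabidopsis* E3 ligase that marks misfolded proteins for degradation. The PI of BrMPSR1-1 (Bra012441) was 6957 at 28 °C against 1404 at 12 °C in Kenshin, and 6769.5 at 28 °C against 1527 at 12 °C in Chiifu, which gives log2 ratios of 2.27 in Kenshin and 2.11 in Chiifu. BrMPSR1-2 (Bra016290) read 8894 at 28 °C and 1891 at 12 °C in Kenshin, a log2 ratio of 2.20, and 8680.3 at 28 °C and 2322 at 12 °C in Chiifu, a log2 ratio of 1.88. The lines were close at 28 and at 12 °C, and the mean log2 ratio was 2.19 ± 0.11 for BrMPSR1-1 (limma adjusted p = 0.0866) and 2.04 ± 0.23 for BrMPSR1-2 (0.124; SD, n = 2 lines). At 22 °C both were brighter in Chiifu, with 2633 in Kenshin and 4542 in Chiifu for BrMPSR1-1 and 2674 in Kenshin and 7671 in Chiifu for BrMPSR1-2. At 28 °C BrSMP1 (Bra023741) reached a PI of 1712 in Kenshin and 1189.6 in Chiifu, where the 12 °C samples had 589 in Kenshin and 232 in Chiifu, for log2 ratios of 1.46 in Kenshin and 2.14 in Chiifu. BrSMP1 is the homolog of a splicing factor, and its limma adjusted p was 0.125. Each of these genes was at least 2-fold higher in both lines, as were 2.76% of all compared genes. BrSMP1 stands in the study's adaptation table, and BrMPSR1 was taken to RT-PCR among genes picked from the array results. Their direction is thus no independent evidence.

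Of the thermosensing genes, 1 of 5 was at least 2-fold higher in both lines, where 2.76% of all compared genes were. This was BrPIF6, a relative of the phytochrome-interacting factors. The study chose it for its adaptation table on these same arrays, so it is no independent evidence. None of the BrPIF4 and BrPHYB copies, listed as homologs of *Arabidopsis* markers, was 2-fold higher in both lines. For BrPIF6 (Bra007660) the Kenshin samples gave 1883 at 28 °C and 684 at 12 °C (log2 ratio 1.40), and the Chiifu samples 537 at 28 °C and 239 at 12 °C (1.02). BrPIF4 (Bra000283), homolog of the central factor of warm-temperature growth in *Arabidopsis*, was past 2-fold in Kenshin alone. BrPIF4 (Bra000283) had a PI of 24186 in Kenshin and 15413 in Chiifu at 28 °C, against 9359 in Kenshin and 12261 in Chiifu at 12 °C (log2 ratios 1.37 in Kenshin and 0.33 in Chiifu). The second copy, Bra037742, had a log2 ratio of 0.41 in Kenshin and -0.30 in Chiifu. BrPHYB, the phytochrome B gene, had 0.30 in Kenshin and -0.35 in Chiifu for the bright copy Bra022192, and -0.97 in Kenshin and 0.10 in Chiifu for the dim copy Bra001650. Apart from BrPIF6, no thermosensing gene was past 2-fold in Chiifu.

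The light and growth genes of the study were lower at 28 °C in both lines. The study chose these 6 because they were lower after cold and after warming in Kenshin on these arrays, so their direction in Kenshin is no independent evidence. It set this group against Chiifu, so the values of Chiifu may not be independent evidence either. At least 2-fold lower were 5 of 6 in Kenshin (5.82% of all compared genes) and 6 of 6 in Chiifu (9.37%), with median log2 ratios of -1.72 in Kenshin and -1.97 in Chiifu. The PI of BrGA2OX1 (Bra008362) was 28.8 at 28 °C against 349 at 12 °C in Kenshin, and 11.4 at 28 °C against 702 at 12 °C in Chiifu, which gives log2 ratios of -2.34 in Kenshin and -3.61 in Chiifu. BrGA2OX1 codes for an enzyme that inactivates gibberellins, and its 28 °C value in Chiifu was below the random-sequence feature. BrHYH (Bra022225) read 91.9 at 28 °C and 1179.9 at 12 °C in Kenshin, a log2 ratio of -3.12, and 142 at 28 °C and 748 at 12 °C in Chiifu, a log2 ratio of -2.05. BrHYH is a homolog of the light-signalling factor HY5. Adjusted p-values with limma ran from 0.194 to 0.376.

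The remaining 4 genes of this group gave log2 ratios of -0.85 to -1.75 in Kenshin and -1.38 to -2.38 in Chiifu. These were the second BrHYH copy (Bra021258), BrCOL1 (Bra023541) and 2 copies of BrCOL2 (Bra021464 and Bra001043), relatives of the daylength factor CONSTANS. Levels before the cold step differed between the lines for the whole group. At 22 °C PI was 520 to 3262 in Kenshin and 64.5 to 289 in Chiifu, and in Chiifu the 12 °C value was above the 22 °C value for each of the 6 genes, while in Kenshin it was below for each. The lower levels at 28 °C thus followed opposite steps in the cold.

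Transcription factors of the adaptation table differed between the lines in direction. The table holds 12, of which BrPIF6 is described above with the thermosensing genes. All 12 were at least 2-fold higher at 28 °C in Kenshin, which the table's choice favours, whereas in Chiifu 3 were 2-fold higher, 5 were 2-fold lower and 4 lay between. Over all compared genes, 6.55% were 2-fold higher in Kenshin, and 6.13% were higher and 9.37% lower in Chiifu. The table's criteria set Kenshin's levels against those of Chiifu on these arrays, so the values of Chiifu are no independent evidence either. Of the 12, Bra002790, BrMYB82, Bra032079, BrHB3 and BrLSH9 (Bra021000) passed the PI minimum at 28 °C only, the group where they were high. Beside BrPIF6 the shared ones were a helix-turn-helix regulator (Bra039208) and the MYB-like gene Bra002790. At 28 °C Bra039208 reached a PI of 6076 in Kenshin and 3449 in Chiifu, where the 12 °C samples had 1072 in Kenshin and 1383 in Chiifu, for log2 ratios of 2.45 in Kenshin and 1.29 in Chiifu. For Bra002790 the Kenshin samples gave 767 at 28 °C and 144 at 12 °C (log2 ratio 2.08), and the Chiifu samples 589 at 28 °C and 154 at 12 °C (1.64). A second MYB-like gene that the study names in its text, Bra006853, had the largest shared ratio among them. Bra006853 had a PI of 2286 in Kenshin and 3884 in Chiifu at 28 °C, against 255 in Kenshin and 699 in Chiifu at 12 °C (log2 ratios 2.94 in Kenshin and 2.39 in Chiifu). Its mean log2 ratio was 2.66 ± 0.38 (SD, n = 2 lines, SE 0.22 and adjusted p = 0.079 with limma, 0.0271 with an intensity trend).

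The 5 that were lower in Chiifu and higher in Kenshin were BrMYB82, BrHB3, BrLSH10, a Dof-type factor and Bra007905. The PI of Bra012119 was 2746 at 28 °C against 983 at 12 °C in Kenshin, and 209 at 28 °C against 1459 at 12 °C in Chiifu, which gives log2 ratios of 1.44 in Kenshin and -2.54 in Chiifu. This Dof-type gene had the widest gap, 3.98 log2 units. BrMYB82 (Bra029113) read 1579 at 28 °C and 371 at 12 °C in Kenshin, a log2 ratio of 1.95, and 132 at 28 °C and 334 at 12 °C in Chiifu, a log2 ratio of -1.08. At 28 °C Bra007905 reached a PI of 3529 in Kenshin and 368 in Chiifu, where the 12 °C samples had 952 in Kenshin and 797 in Chiifu, for log2 ratios of 1.84 in Kenshin and -1.02 in Chiifu. BrHB3 is a homeobox gene and BrLSH10 a member of a small family of nuclear proteins that act in light-dependent growth. For BrHB3 (Bra023506) the Kenshin samples gave 1184 at 28 °C and 372 at 12 °C (log2 ratio 1.55), and the Chiifu samples 165 at 28 °C and 389 at 12 °C (-1.03). BrLSH10 (Bra016865) had a PI of 2079 in Kenshin and 197 in Chiifu at 28 °C, against 1013 in Kenshin and 617 in Chiifu at 12 °C (log2 ratios 1.002 in Kenshin and -1.43 in Chiifu). In each of the 5 the lines lay within about 2-fold of each other at 12 °C and apart at 28 °C, with Kenshin the brighter line. BrKNAT6, a KNOX homeobox gene of the shoot meristem, had 1.10 in Kenshin and -0.96 in Chiifu.

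**Figure D5:**
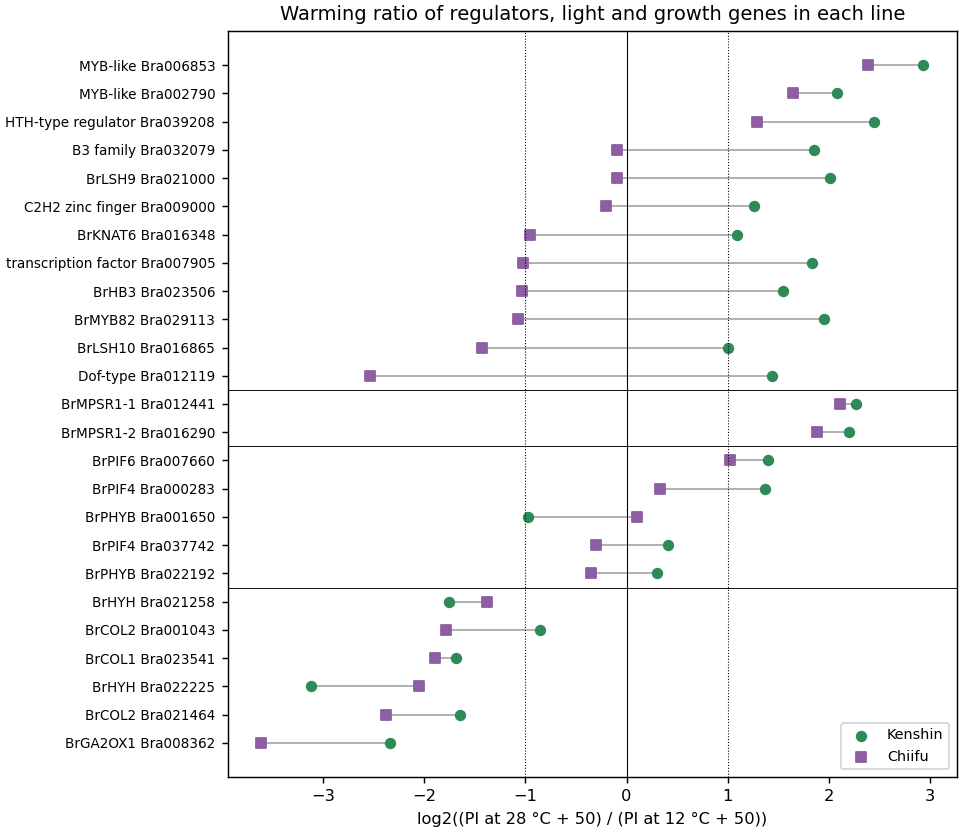
Log2 ratio of 28 over 12 °C (x axis) in Kenshin (circles) and Chiifu (squares) for transcription factors, BrMPSR1, thermosensing and light or growth genes, with dotted lines at a 2-fold difference. In 9 of the 12 genes of the top panel (Bra006853 among them, BrPIF6 not) the Chiifu square lies below 0 while the Kenshin circle is at or above 1.

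The 36 other genes of the adaptation table were all above 0 in Kenshin, 31 of them past 2-fold, and in Chiifu 25 were above 0 and 9 past 2-fold (8 in both lines). Over all compared genes 6.55% were past 2-fold in Kenshin, 6.13% in Chiifu and 2.76% in both, and the table was chosen for high values of Kenshin on these arrays. Median log2 ratios were 1.32 in Kenshin and 0.34 in Chiifu. The largest shared ones were a heavy metal transport/detoxification protein (Bra037865) and a hydroxyproline-rich glycoprotein of the LEA type (Bra028562). The PI of Bra037865 was 2044 at 28 °C against 67.0 at 12 °C in Kenshin, and 505 at 28 °C against 45.3 at 12 °C in Chiifu, which gives log2 ratios of 4.16 in Kenshin and 2.54 in Chiifu. Bra028562 read 2595 at 28 °C and 123 at 12 °C in Kenshin, a log2 ratio of 3.94, and 879 at 28 °C and 77.6 at 12 °C in Chiifu, a log2 ratio of 2.86. Further examples higher in both lines were enzymes. At 28 °C BrGLN1.3 (Bra021276) reached a PI of 7326 in Kenshin and 2579 in Chiifu, where the 12 °C samples had 3121 in Kenshin and 1053 in Chiifu, for log2 ratios of 1.22 in Kenshin and 1.25 in Chiifu. BrGLN1.3 is a glutamine synthetase. For BrROT3 (Bra011678) the Kenshin samples gave 842 at 28 °C and 205 at 12 °C (log2 ratio 1.81), and the Chiifu samples 349.6 at 28 °C and 139 at 12 °C (1.08). BrROT3 is a cytochrome P450 of brassinosteroid synthesis. Bra037865 and BrROT3, like several others of the 36, passed the PI minimum at 28 °C only, the group where they were high.

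The lines differed by at least 1 log2 unit in 3879 genes (14.4%). The ratio was higher in Kenshin for 2324 of these and higher in Chiifu for 1555. In opposite directions, each at least 2-fold, 76 genes were higher at 28 °C in Kenshin and lower in Chiifu, and 16 were lower in Kenshin and higher in Chiifu. The 76 had medians of 1576 in Kenshin and 195 in Chiifu at 28 °C, against 525 in Kenshin and 805 in Chiifu at 12 °C. These differences are descriptions, since 1 value per line and temperature leaves no degree of freedom to test them.

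The widest gaps lay with genes that were bright in Kenshin and dim in Chiifu at 28 °C. A gap of at least 4 log2 units with the higher ratio in Kenshin was found for 52 genes, and with the higher ratio in Chiifu for 4. Of the 52, 47 were at least 8-fold lower at 28 °C in Chiifu, 38 were under 2-fold either way in Kenshin, and 0 were 2-fold lower in Kenshin. Their median PI was 3039.9 in Kenshin and 108 in Chiifu at 28 °C, against 2262 in Kenshin and 3922 in Chiifu at 12 °C, and 615 in Kenshin and 508 in Chiifu at 22 °C. The median of each line was thus higher at 12 than at 22 °C. At 28 °C the median of Chiifu was below its 22 °C value and that of Kenshin above. The genes were chosen by the gap between the ratios, so part of this pattern follows from the choice.

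Bra028424 and Bra013622 were the extremes of this kind. Bra028424 had a PI of 3094 in Kenshin and 9.49 in Chiifu at 28 °C, against 2637 in Kenshin and 7396 in Chiifu at 12 °C (log2 ratios 0.23 in Kenshin and -6.97 in Chiifu). The PI of Bra013622 was 6979.6 at 28 °C against 6293 at 12 °C in Kenshin, and 60.0 at 28 °C against 12604 at 12 °C in Chiifu, which gives log2 ratios of 0.15 in Kenshin and -6.85 in Chiifu. At 22 °C Bra028424 read 9.63 in Kenshin and 9.64 in Chiifu, below the random-sequence feature, and Bra013622 read 48.9 in Kenshin and 64.1 in Chiifu. Both genes were thus near background before the cold, bright in both lines at 12 °C, and at 28 °C bright in Kenshin alone. In the opposite direction stood Bra021998 and Bra039956. Bra021998 read 676 at 28 °C and 2418 at 12 °C in Kenshin, a log2 ratio of -1.76, and 875 at 28 °C and 75.5 at 12 °C in Chiifu, a log2 ratio of 2.88. At 28 °C Bra039956 reached a PI of 55.2 in Kenshin and 221 in Chiifu, where the 12 °C samples had 4759 in Kenshin and 504 in Chiifu, for log2 ratios of -5.51 in Kenshin and -1.03 in Chiifu. Bra039956 passed the PI minimum at 12 °C only, the group where it was high. Bra021998 was dim at 22 °C, at 23.3 in Kenshin and 16.6 in Chiifu, and at 28 °C both lines had similar levels that Kenshin reached from above and Chiifu from below.

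Among all 205 genes at least 8-fold lower at 28 °C in Chiifu, the median log2 ratio was -0.50 in Kenshin and -3.55 in Chiifu. In Kenshin 87 of these were at least 2-fold lower and 109 under 2-fold. For the 101 genes at least 8-fold lower in Kenshin, the median was -3.47 in Kenshin and -2.21 in Chiifu, where 18 were under 2-fold. The 68 genes at least 8-fold higher in Kenshin had a median of 3.46 in Kenshin and 2.49 in Chiifu, and the 45 at least 8-fold higher in Chiifu had 2.91 in Kenshin and 3.42 in Chiifu. Each set was chosen in 1 of the lines, whose own values are therefore the more extreme ones, and the difference between the sets was not tested.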

How the data were processed

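RNA from Kenshin and Chiifu shoots at 22, 12 and 28 °C was labelled with Cy3 and hybridised to the Br135K array, 1 sample per line and temperature. The authors deposited 1 linear probe intensity for each of 41173 genes and of 15 control features. The submitters' processing notes name RMA, with no version. The methods speak of repeated experiments and the record's description of replicates and water withdrawal, whereas the labels list 6 samples, so any averaging before deposit is not known here. The number of arrays limits the precision.

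Intensities were used as deposited. Log2 ratios of 28 over 12 °C with 50 added were formed within each line, for genes over 500 in at least 1 sample, and a gene was counted at 2-fold. limma 3.58.1 under R 4.3.3 gave the test of the shared difference (lmFit, eBayes, all 6 samples, line as block, Benjamini-Hochberg, threshold 0.05). The fit was tested on simulated data. Other steps used Python 3.11.15, pandas 2.3.3, numpy 2.4.6 and matplotlib 3.10.9. Replicate numbers in the tables stand for the lines, so the block is the line.

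Members, lists and tests were chosen with earlier results of these data known. Genes picked for description are those the study names and the first 2 each way ranked on the line with the smaller ratio. The first 2 each way by the difference of the lines were added. Of the identifiers 1 had a symbol in the RefSeq gene table, so no coordinates or sequences are given. Alternatives were 0 or 100 added, no minimum or a minimum of 1000, a minimum in the 4 compared samples, a 3-fold limit, quantile normalization, median scaling, an intensity trend, no block, the 4 samples alone and leaving out each 28 or 12 °C sample.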

Additional observations from a re-analysis of the deposited data

Results flagged for a closer look

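In 6 of the genes described here, 1 of them (Bra021998) without a name, the lines moved at least 2-fold in opposite directions. The contrast was not tested because 1 sample per line and temperature allows no test of it. The log2 ratio of Kenshin minus that of Chiifu was 3.03 for BrMYB82 (Bra029113), 2.86 for Bra007905, 2.58 for BrHB3 (Bra023506), 3.98 for the Dof-type Bra012119 and 2.43 for BrLSH10 (Bra016865). For Bra021998 it was -4.65, with a log2 ratio of -1.76 in Kenshin and 2.88 in Chiifu.

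A pair of control features for transgenes, which no comparison uses, was brighter at 28 °C in Kenshin. The feature sGFP_Barcds000006 read 1116 in Kenshin at 28 °C, against 214 at 12 °C, a log2 ratio of 2.14. Its antisense feature sGFP_Barcds000006_AS read 1083 in Kenshin at 28 °C, against 192 at 12 °C, a log2 ratio of 2.23. In Chiifu the ratios were 0.58 for the sense and 0.75 for the antisense feature, and in Kenshin the other 12 features lay between -0.46 and 0.46.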

How the results depend on the processing

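Most counts, medians and correlations stayed near their main values under the alternatives, and the larger shifts follow. The main fit called 0 genes, so a count of 0 in other fits is no sign of stability. With a 3-fold limit, 230.0 genes were higher and 291 lower in both lines, 638 higher and 693 lower in Kenshin, 447 higher and 1164 lower in Chiifu, 7 were opposite, and 12 heat genes were higher in both lines. The opposite genes, 92 in the main setting, numbered 132 with 0 added, 59 with 100 added and 140.0 with no minimum. With no minimum the median absolute log2 ratio of Kenshin was 0.29. An intensity trend in limma called 237 genes higher and 236 lower. All other fits called 0, also without each of the 28 and 12 °C samples in turn (lowest 0, highest 0; the 22 °C samples were not left out) and with no replicate block, where the 2 lines were not paired and 0 genes were higher and 0 lower, with 1831 higher and 1487 lower at an unadjusted p under 0.05. The smallest adjusted p over the fits without a trend lay between 0.0556 and 0.375. Of 44 genes past 2-fold the same way in both lines, some were named by the study and the others picked by rank. With an intensity trend 15 passed, 11 of them genes that the study lists, and 0 changed direction. Of all compared genes the trend fit called 0.879% higher and 0.876% lower. The 44 were taken for their large ratios in both lines on these arrays, so these counts are no independent evidence. The number of arrays limits every value here, and dim genes near the random-sequence feature have no exact ratio.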
